A study of Mus musculus with 6 samples.

Results

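Receptors of natural killer (NK) cells and genes of their cytotoxic granules were followed in haematopoietic stem cell (HSC) libraries sorted by mitochondrial membrane potential. The genes were 10 of the 28786 gene IDs of the deposited table: Klra4, Klra7, Klra8, Klrd1, Klrk1, Klrb1c, Ncr1, Il2rb, Nkg7 and Gzma. The 3 Klra genes were chosen because their RNA was lower in the TMRM-high libraries, and the others because they encode NK receptors or granule proteins whose values were also known when they were chosen. Values of these 10 genes are therefore given as a description, with no test. TMRM is a dye that collects in mitochondria according to their membrane potential. TMRM-high HSCs (3 libraries) were set against TMRM-low HSCs (3 libraries). All libraries came from the bone marrow of C57BL/6 mice, wild type and 6 to 8 weeks old, with 1500 cells per library gated as Lin-, Sca-1+, c-Kit+, CD48- and CD150+. No label says that libraries came from separate mice, so the spread between libraries may be technical.

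NK cells are innate lymphocytes that read other cells through a balance of activating and inhibitory receptors and kill by releasing granules. In mice many of these receptors are C-type lectin-like proteins encoded side by side in the NK gene complex of chromosome 6, where the Klra (Ly49) genes form a large family of close copies. A single NK cell uses only some Klra genes, and which ones varies from cell to cell. HSCs are not known for these receptors, while lymphoid progenitors gain the IL-2 and IL-15 receptor beta chain, Il2rb, as they commit to the NK lineage.

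The libraries held 14270069 to 22070594 estimated counts in the TMRM-high group and 15930495 to 18431567 in the TMRM-low group. The TMRM-high libraries were far more alike than the TMRM-low libraries: the biological coefficient of variation, the spread beyond counting error, was 7.26% in the TMRM-high group against 42% in the TMRM-low group. They still differed beyond sampling noise, with 3.98 to 6.74 times the chi-square expected per degree of freedom, against 46 to 51.4 times between TMRM-low libraries. Because the 3 TMRM-high libraries may share material, the tests below were also run with them summed into 1 library. RNA of the gated HSC markers was uneven, with Procr, Ly6a and Slamf1 named after their values were seen. Procr, the endothelial protein C receptor gene of HSCs, averaged 3.57 ± 0.304 CPM in TMRM-high libraries, against 33.9 ± 9.84 CPM in TMRM-low libraries, and Ly6a, which encodes Sca-1, averaged 30.3 ± 2.18 CPM in TMRM-high libraries against 167.5 ± 7.77 CPM in TMRM-low libraries (SD, n = 3 each). Slamf1, which encodes CD150, was at 5.53 ± 0.569 CPM in TMRM-high libraries, against 5.13 ± 3.98 CPM in TMRM-low libraries, and RNA of Cd48 was at 147.4 ± 2.82 CPM in TMRM-high libraries against 136.9 ± 22.6 CPM in TMRM-low libraries although the gate excludes the protein. Marker genes of neutrophil progenitors summed to 16000.2 to 16397.6 CPM in TMRM-high libraries, against 3696.5 to 4064.1 CPM in TMRM-low libraries. CPM express a gene's count relative to the TMM-scaled total of its library. A count of 0 in a library allows a level of up to 0.136 to 0.208 CPM (3 counts, counting error only).

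RNA of all 8 receptor genes was lower in the TMRM-high libraries and the libraries of the groups did not overlap. Summed over these receptors, the level was 11.3, 9.03 and 12.3 CPM in TMRM-high libraries 1 to 3, against 121.3, 105.8 and 99.5 CPM in TMRM-low libraries 1 to 3. The TMRM-high sum rests on 250, 176 and 177 counts. Of the granule genes, Nkg7 was higher in every TMRM-high library and Gzma overlapped between the groups. Over all 13662 tested genes, the TMRM-high libraries lay wholly below the TMRM-low libraries for 17.0% and wholly above them for 18.4%. The counts of 8 and 1 of 10 genes stand beside these shares without a reading, since the choice of genes used this contrast. In bulk libraries such as these, fewer cells of a type and less RNA per cell cannot be told apart.

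**Figure D1:**
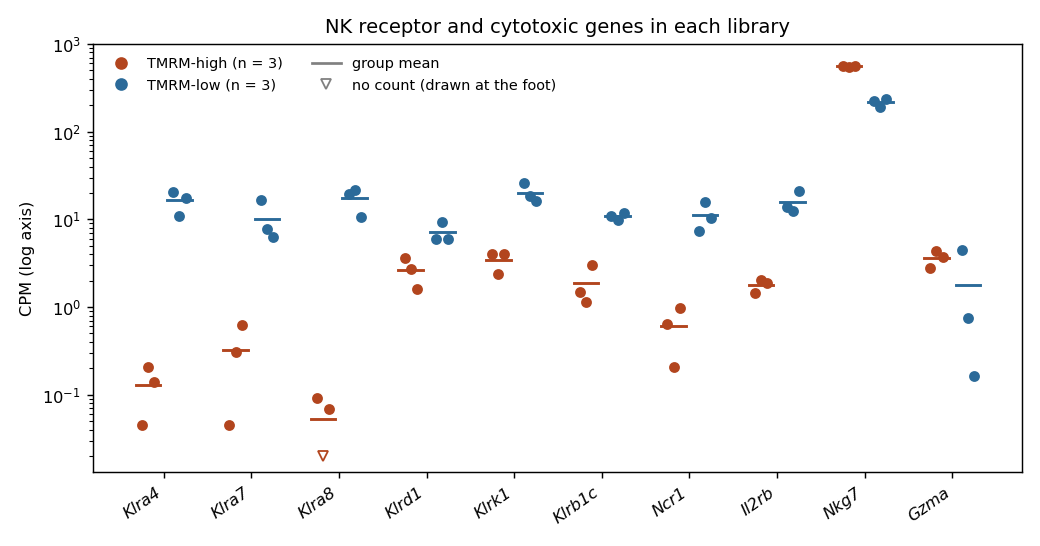
RNA of the 10 genes in each library. The vertical log axis gives CPM, points are libraries (n = 3 per group), bars are group means and the triangle marks the TMRM-high library with no Klra8 count. The 8 receptor genes sit lower in every TMRM-high library, Nkg7 sits at 549.1 to 561.3 CPM in TMRM-high libraries, against 191.3 to 238.0 CPM in TMRM-low libraries, and Gzma overlaps.

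The Klra genes, which were chosen for their fall, had the widest gap. The starts of these genes are shown because the family arose from close copies and the same stretches recur just before them. The windows cover 250 bases before to 50 bases after the RefSeq start on GRCm38.p6, minus strand, 5′ to 3′, and capitals mark the runs of at least 10 bases that all 3 windows share exactly. Klra4 lies at chr6:130067222-130067521, Klra7 at chr6:130233273-130233572 and Klra8 at chr6:130129849-130130148.
Klra4: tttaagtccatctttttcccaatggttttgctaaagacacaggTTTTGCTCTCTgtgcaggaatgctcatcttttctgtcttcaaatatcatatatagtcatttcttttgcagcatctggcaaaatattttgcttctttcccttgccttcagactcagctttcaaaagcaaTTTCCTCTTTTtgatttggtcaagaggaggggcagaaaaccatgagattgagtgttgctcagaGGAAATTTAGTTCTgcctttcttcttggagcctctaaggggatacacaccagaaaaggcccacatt
Klra7: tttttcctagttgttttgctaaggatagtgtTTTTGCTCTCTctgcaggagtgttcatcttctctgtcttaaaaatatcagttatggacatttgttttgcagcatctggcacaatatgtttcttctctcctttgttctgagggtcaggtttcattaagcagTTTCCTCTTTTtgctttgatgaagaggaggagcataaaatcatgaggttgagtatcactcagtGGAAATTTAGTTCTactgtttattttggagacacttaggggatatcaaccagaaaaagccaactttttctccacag
Klra8: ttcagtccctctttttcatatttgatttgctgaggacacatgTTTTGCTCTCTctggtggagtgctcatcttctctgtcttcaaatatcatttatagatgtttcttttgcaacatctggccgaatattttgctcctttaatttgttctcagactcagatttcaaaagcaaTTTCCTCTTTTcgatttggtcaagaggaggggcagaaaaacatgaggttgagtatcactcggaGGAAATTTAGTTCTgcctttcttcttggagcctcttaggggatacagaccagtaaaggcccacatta
The shared stretches number 3 and hold 36 bases, the longest being GGAAATTTAGTTCT. Aligned end to end, the windows of Klra4 and Klra8 were identical at 86.0% of positions, those of Klra7 and Klra8 at 75.8% and those of Klra4 and Klra7 at 74.7%. For the other windows of the 10 genes, each pair was identical at 44.9% to 51.2% of positions.

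Klra4 encodes Ly49D, an activating receptor that signals through the adaptor DAP12 (ENSMUSG00000079852, chromosome 6, 130043731 to 130067271, minus strand, GRCm38). Its level was 0.0454, 0.205 and 0.139 CPM in TMRM-high libraries 1 to 3, against 20.7, 10.9 and 17.7 CPM in TMRM-low libraries 1 to 3. Klra4 was close to absent from every TMRM-high library, with 7 counts in all, and each TMRM-low library held at least 174 counts. The log2 fold change was -6.94 (SE 0.603).

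Klra8 encodes Ly49H, the activating receptor that lets C57BL/6 NK cells recognise the m157 protein of mouse cytomegalovirus (ENSMUSG00000089727, 130115226 to 130129898). Its counts were 2, 0 and 1 in TMRM-high libraries, against 340, 347 and 196 in TMRM-low libraries. Klra8 was thus at or near 0 throughout the TMRM-high group and present in each TMRM-low library. With 3 counts in the TMRM-high group, the level is given as a ratio of TMRM-low over TMRM-high, which was 319 (95% exact binomial interval 109 to 1548, counting error only). This ratio lay between 208 and 579 when any 1 library was left out.

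Klra7 encodes Ly49G, an inhibitory receptor for MHC class I (ENSMUSG00000067599, 130218605 to 130233322). It reached 0.0454, 0.308 and 0.625 CPM in TMRM-high libraries, against 16.6, 7.68 and 6.26 CPM in TMRM-low libraries. TMRM-low replicate 1 stood above the other two, and the lowest TMRM-low library was still above every TMRM-high library. The log2 fold change was -5.0 (SE 0.873), and it was -5.82 without TMRM-high replicate 3.

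How far the estimated counts can be split between copies differs among the genes. In GENCODE M21 transcripts, 82.5% of the 31-base words of Klra4 occur in no other gene, as do 75.3% of those of Klra7 and 45.0% of those of Klra8. Klra8 shares 33.4% of its words with the pseudogene Klra14-ps and 23.7% with Klra9, and Klra7 shares 23.6% with the pseudogene Klra13-ps. Of 51-base words, 95.6% of those of Klra4, 88.2% of those of Klra7 and 67.6% of those of Klra8 occur in no other gene. All other shares given are of 31-base words. The level of a single Klra gene is therefore uncertain, most of all for Klra8. Summed over the copies the groups still stood apart. These sums include the Klra genes chosen for their fall, which hold most of the TMRM-low counts, so the gap was largely set by that choice. Klra8, Klra9 and Klra14-ps together held 4, 0 and 7 counts in TMRM-high libraries, against 546, 349 and 257 in TMRM-low libraries. All 14 Klra genes and pseudogenes together were at 2.77, 3.33 and 3.19 CPM in TMRM-high and 73.8, 62.6 and 47.0 CPM in TMRM-low libraries. Klrb1c keeps 78.8% of its words to itself and Klrk1 nearly all, while Klrd1, Ncr1, Il2rb, Nkg7 and Gzma share none with another gene.

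Klrk1 encodes NKG2D, an activating receptor for stress-induced ligands that signals through DAP10 (ENSMUSG00000030149, chromosome 6, 129610323 to 129623864, minus strand). It was at 3.99, 2.41 and 4.03 CPM in TMRM-high libraries, against 26.2, 18.3 and 16.1 CPM in TMRM-low libraries. It was present in every library of both groups and lower in every TMRM-high library, with a log2 fold change of -2.54 (SE 0.358). Klrd1 encodes CD94, the partner chain of the NKG2 receptors (ENSMUSG00000030165, 129591782 to 129598775, plus strand). Its level was 3.58, 2.72 and 1.6 CPM in TMRM-high libraries, against 5.96, 9.36 and 5.93 CPM in TMRM-low libraries. Klrd1 had the smallest gap of the 8 receptors, with a log2 fold change of -1.42 (SE 0.478), and its TMRM-high libraries held 155 counts in all.

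Klrb1c encodes NK1.1, the antigen used to define NK cells in C57BL/6 mice (ENSMUSG00000030325, chromosome 6, 128778485 to 128789215, minus strand). It reached 1.5, 1.13 and 2.99 CPM in TMRM-high libraries, against 10.9, 9.80 and 11.8 CPM in TMRM-low libraries. Its TMRM-low libraries lay closest together of the 10 genes, with a coefficient of variation of 9.08%. The log2 fold change was -2.54 (SE 0.474).

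Ncr1 and Nkg7 both lie on chromosome 7, and their RefSeq windows on GRCm38.p6 are shown because these genes went opposite ways. Both are on the plus strand, Ncr1 at chr7:4337474-4337773 and Nkg7 at chr7:43436888-43437187, 5′ to 3′. Capitals mark matches on either strand to the binding motifs of factors known in NK cells: T-box (AGGTGT), RUNX (TGTGGT), ETS (CGGAAG or AGGAAG), STAT5 (TTCNNNGAA) and E-box (CAGGTG).
Ncr1: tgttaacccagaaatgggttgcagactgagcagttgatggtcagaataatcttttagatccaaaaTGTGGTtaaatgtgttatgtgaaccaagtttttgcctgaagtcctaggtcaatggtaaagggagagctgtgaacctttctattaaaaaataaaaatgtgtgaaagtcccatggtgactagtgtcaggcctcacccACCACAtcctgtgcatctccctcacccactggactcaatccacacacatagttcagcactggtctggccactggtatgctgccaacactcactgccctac
Nkg7: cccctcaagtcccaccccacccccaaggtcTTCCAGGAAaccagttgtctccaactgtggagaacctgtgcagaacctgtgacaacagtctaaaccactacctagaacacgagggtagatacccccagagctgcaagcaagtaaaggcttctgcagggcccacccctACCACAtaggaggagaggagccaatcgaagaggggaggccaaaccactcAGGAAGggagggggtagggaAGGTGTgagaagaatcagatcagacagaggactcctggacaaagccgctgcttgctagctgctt
The Ncr1 window held 2 RUNX matches and no other. The Nkg7 window held 1 match each to the T-box, RUNX, ETS and STAT5 motifs, and these did not overlap. Windows were found for 8 of the 10 genes, not for Klrd1 and Il2rb. A RUNX match was in 5 of the 8 windows (16.8% of all 32851 windows), a T-box match in 2 (13.7%), an ETS match in 2 (46.5%), a STAT5 match in 1 (8.3%) and an E-box match in 1 (20.2%). Overlapping matches, such as the T-box and E-box letters in the Gzma window, were each counted. The windows of Klra4, Klra7 and Klra8 held none of these letters. A match is a description of letters and no site of binding was measured.

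Ncr1 encodes NKp46, an activating receptor (ENSMUSG00000062524, chromosome 7, 4337724 to 4345164). Its level was 0.635, 0.205 and 0.972 CPM in TMRM-high libraries, against 7.41, 15.8 and 10.3 CPM in TMRM-low libraries. All TMRM-high libraries were below 1 CPM and all TMRM-low libraries were well above them, with a log2 fold change of -4.21 (SE 0.653). Il2rb encodes CD122, the beta chain that NK cells need to respond to IL-15 (ENSMUSG00000068227, chromosome 15, 78479256 to 78495271, minus strand). It was at 1.45, 2.05 and 1.87 CPM in TMRM-high libraries, against 13.8, 12.4 and 20.8 CPM in TMRM-low libraries. Its libraries did not overlap, and the log2 fold change was -3.12 (SE 0.380).

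Nkg7 encodes a small membrane protein of cytotoxic granules (ENSMUSG00000004612, chromosome 7, 43437073 to 43438249). It was at 556.6, 549.1 and 561.3 CPM in TMRM-high libraries, against 225.4, 191.3 and 238.0 CPM in TMRM-low libraries. Nkg7 was thus abundant in both groups and higher in each TMRM-high library, with a log2 fold change of 1.35 (SE 0.0861). Markers of other cells moved with Nkg7. All 13 neutrophil progenitor markers passed the test upward in TMRM-high libraries, with the summed level given above. With the TMRM-high libraries summed, 12 of the 13 passed. Of 9 basophil and mast cell markers, 5 passed upward and 0 downward (3 upward with the TMRM-high libraries summed, 8 upward without TMRM-low replicate 1), and their sum was 318.8 to 332.2 CPM in TMRM-high libraries, against 58.6 to 73.0 CPM in TMRM-low libraries. These counts are by edgeR's quasi-likelihood test at an adjusted p below 0.05, which called 5.84% of the tested genes higher and 5.12% lower in TMRM-high libraries. The part of these cells in the Nkg7 level was not tested. Some basophil and mast cell markers, near 0 in TMRM-low libraries, passed the filter on low counts only through the TMRM-high libraries.

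Gzma encodes granzyme A, a serine protease released from the granules (ENSMUSG00000023132, chromosome 13, 113093825 to 113100981, minus strand). Its level was 2.77, 4.41 and 3.75 CPM in TMRM-high libraries, against 4.51, 0.749 and 0.163 CPM in TMRM-low libraries. The groups overlapped because TMRM-low replicate 1 was above every TMRM-high library while the other two TMRM-low libraries were below them. The log2 fold change was 1.01 (SE 1.01), and it was 3.00 without TMRM-low replicate 1.

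Per kilobase of the longest annotated transcript, the order of the levels differed between the groups. In TMRM-high libraries Nkg7 led at 630.7 ± 7.01 CPM per kilobase, followed by Gzma at 3.66 ± 0.831, Klrd1 at 2.87 ± 1.08 and Klrk1 at 1.07 ± 0.283. The remaining TMRM-high levels were 0.713 ± 0.375 for Klrb1c, 0.427 ± 0.0735 for Il2rb, 0.404 ± 0.257 for Ncr1, 0.295 ± 0.263 for Klra7, 0.104 ± 0.0645 for Klra4 and 0.0453 ± 0.0403 for Klra8, all in CPM per kilobase. In TMRM-low libraries Nkg7 again led, at 247.7 ± 27.4 CPM per kilobase, and Klra8 at 14.7 ± 4.97 and Klra4 at 13.2 ± 4.03 came next. Below them stood Klra7 at 9.22 ± 5.08, Klrd1 at 7.71 ± 2.15, Ncr1 at 7.47 ± 2.85, Klrk1 at 6.20 ± 1.63, Klrb1c at 4.13 ± 0.375, Il2rb at 3.73 ± 1.07 and Gzma at 1.82 ± 2.37 CPM per kilobase. The Klra genes were the least abundant of the 10 in TMRM-high libraries and the most abundant after Nkg7 in TMRM-low libraries. They were chosen for their fall, so this change of place was largely set by that choice. Sequence shared between copies also leaves their single levels uncertain. Neighbours in these orders overlapped within 1 SD, except for the step below Nkg7 in both groups, the step below Klrd1 in TMRM-high libraries and that below Klrk1 in TMRM-low libraries.

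The 3 TMRM-low libraries did not carry the receptors in fixed proportions. TMRM-low replicate 1 was highest for Klra4, Klra7, Klrk1 and Gzma, replicate 2 for Klra8, Klrd1 and Ncr1, and replicate 3 for Klrb1c, Il2rb and Nkg7. The largest share that a single library held of a gene's summed TMRM-low CPM ran from 36.2% for Klrb1c to 54.4% for Klra7 among the receptors, and was 83.2% for Gzma. Among 4590 tested genes with 93 to 1042 summed TMRM-low counts, the range of the 10 genes without Nkg7, the median largest share was 48.2%. The coefficient of variation between TMRM-low libraries was 9.08% to 55.1% for the receptors, 11.1% for Nkg7 and 130.5% for Gzma, and the median of those 4590 genes was 46.7%. Of the 8 receptors, 7 were below that median. The filter on low counts could keep Klra4 and Klra8, near 0 in TMRM-high libraries, only if all 3 TMRM-low libraries held them. Klra7 needed 2 of the 3. The presence of these genes in TMRM-low libraries was therefore largely fixed by the choice, which also limits their spread. The 4590 genes were not all held to this, so the count of 7 of 8 is given without a reading. Scaling to total counts in place of TMM moved no largest share by more than 0.8 percentage points.

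**Figure D2:**
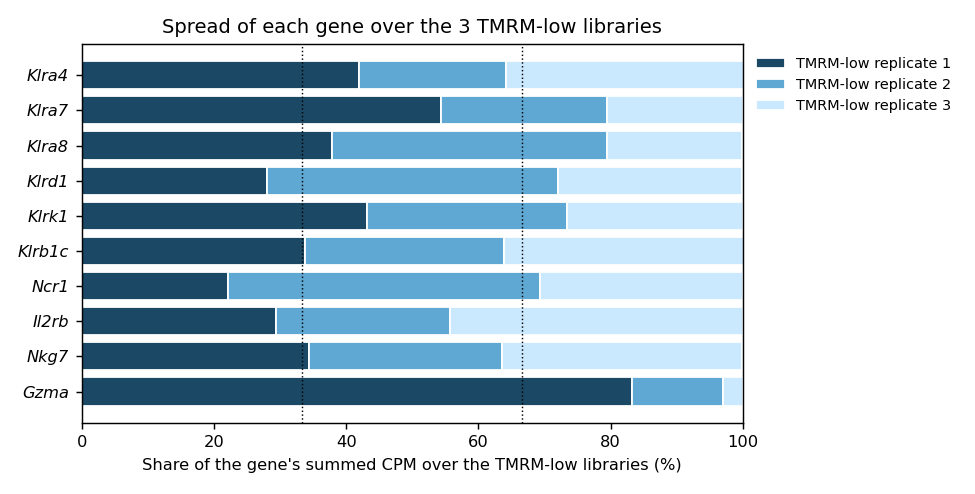
Share of each gene's summed TMRM-low CPM held by each TMRM-low library. The horizontal axis is percent, segments are libraries and dotted lines mark equal shares. Receptor genes are spread over all 3 libraries, with a largest share of 36.2% to 54.4%, while 83.2% of the Gzma level is in replicate 1.

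The table holds 30 Klr genes and pseudogenes, all on chromosome 6 and 28 of them between 128609227 and 131247362. Of the 24 that are not among the 10 genes above, 9 could be tested. By edgeR's test 3 fell and 0 rose in TMRM-high libraries, beside 5.12% lower and 5.84% higher among all tested genes. Klre1, whose product forms receptors with the KLRI proteins, was at 0.817, 0.513 and 0.625 CPM in TMRM-high libraries, against 7.29, 12.9 and 5.93 CPM in TMRM-low libraries (log2 fold change -3.72, SE 0.532, adjusted p = 0.00473). Klrc2, which encodes the activating NKG2C partner of CD94, was at 0.726, 0.513 and 0.486 CPM in TMRM-high libraries, against 8.27, 7.86 and 3.37 CPM in TMRM-low libraries (-3.48, SE 0.584, adjusted p = 0.00951). Both were low in every TMRM-high library and present in each TMRM-low library. The TMRM-high libraries alone would not have carried either gene past the filter on low counts. The direction of these 2 falls was thus partly fixed by the filter. The third was the pseudogene Klra13-ps, named after its value was seen. It held 3, 5 and 6 TMRM-high counts, passed the filter on low counts only through the TMRM-low libraries and shares 27.1% of its words with Klra7, so its test is not independent of the genes described above. Klra13-ps averaged 0.270 ± 0.141 CPM in TMRM-high libraries, against 4.48 ± 1.57 CPM in TMRM-low libraries (-4.05, SE 0.670, adjusted p = 0.00894). Klrc2 shares 16.8% of its words with Klrc1, so its count is uncertain too. Klrc2 and Klra13-ps lost the call when any 1 TMRM-high library was left out (adjusted p = 0.0522 to 0.0798), and with the TMRM-high libraries summed the adjusted p was 0.533 for Klre1, 0.778 for Klrc2 and 0.740 for Klra13-ps.

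Detection of the family differed by library. A count of at least 10, not adjusted for depth, was reached by 10, 8 and 7 of the 30 genes in TMRM-high libraries 1 to 3, against 18, 17 and 17 in TMRM-low libraries 1 to 3. Part of this gap was set by the choice of genes. Klra4, Klra7 and Klra8, chosen for their fall, reached 10 counts in every TMRM-low library and in no TMRM-high library. In the TMRM-low group 11 of the 30 genes reached 10 counts in every library and 11 in only 1 or 2 of them. The following examples were chosen after their values were seen. Klra17 held 0, 75 and 0 counts in TMRM-low libraries 1 to 3, Klra3 held 0, 1 and 58, Klra1 held 0, 89 and 46, Klra9 held 129, 1 and 19, and Klrg1 held 73, 26 and 0. These genes were picked for their uneven counts and do not stand for the family: Klra13-ps held 69, 100 and 59 counts in TMRM-low libraries 1 to 3. Klra9 and Klra3 share words, so their counts can be split between them. No count was found in any library for Klrb1, Klrc3, Klri1, Klra10 and Klra11-ps.

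**Figure D3:**
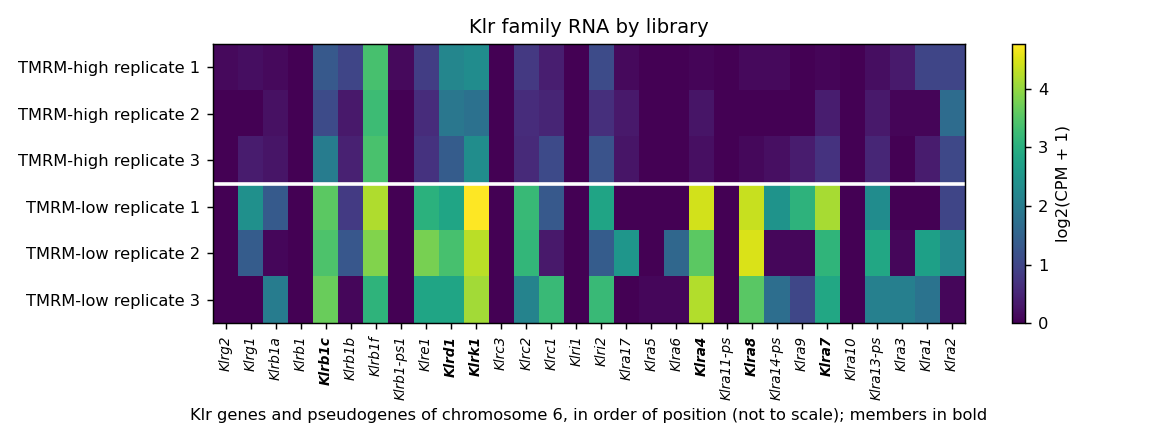
RNA of the 30 Klr genes and pseudogenes in each library. Columns follow their order along chromosome 6, rows are libraries and colour is log2(CPM + 1), with names of the genes described one by one in bold. The TMRM-low rows are brighter, with 17 or 18 genes at 10 counts or more against 7 to 10 in TMRM-high rows. Klra4, Klra7 and Klra8, chosen for their fall, make up part of this gap.

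Other genes of NK receptor biology were read from 7 lists chosen by function, with 129 genes in all, 127 of them in the table and 104 tested. Of the 104, 6 rose and 16 fell in TMRM-high libraries by edgeR's quasi-likelihood test, or 5.77% and 15.4%, against 5.84% and 5.12% of all tested genes. Their median log2 fold change was -0.19, against -0.03 for all 13662 tested genes. Only Ccl4, Ccl5, Fcgr3 and Srgn of the 22 called genes kept the call in all 13 other settings tried. Leaving out any 1 TMRM-high library ended the call of 11 of them and summing the TMRM-high libraries that of 18, without a change of sign.

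Among 15 tested NK receptors outside the 10 genes, 1 rose and 2, Klre1 and Klrc2 above, fell (median -0.71). The gene that rose was Fcgr3, the low-affinity IgG receptor CD16, which myeloid cells also carry. Fcgr3 was at 93.4, 95 and 93.9 CPM in TMRM-high libraries, against 6.42, 5.74 and 13.8 CPM in TMRM-low libraries (log2 fold change 3.44, SE 0.334, adjusted p = 0.00076). Fcgr3 moved with the neutrophil progenitor markers, whose part in it was not tested. Cd244a, the 2B4 receptor for CD48, averaged 25.0 ± 1.56 CPM in TMRM-high libraries, against 19.3 ± 5.11 CPM in TMRM-low libraries and did not pass. Klrb1f, a Klrb1 relative of Klrb1c, averaged 9.20 ± 0.510 CPM in TMRM-high libraries against 12.8 ± 4.96 CPM in TMRM-low libraries and did not pass either.

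The adaptors through which these receptors signal were largely without a call. Of 17 tested genes, 1 rose and 0 fell (median -0.07). The kinase gene Syk was at 128.9 ± 2.42 CPM in TMRM-high libraries, against 92.2 ± 4.56 CPM in TMRM-low libraries (0.48, SE 0.0861, adjusted p = 0.0119). Its call was lost without any 1 TMRM-high library (adjusted p = 0.0781 to 0.0915). Tyrobp, which encodes DAP12, averaged 141.1 ± 4.21 CPM in TMRM-high libraries against 126.9 ± 12.1 CPM in TMRM-low libraries, and Hcst, which encodes DAP10, averaged 40.5 ± 1.42 CPM in TMRM-high libraries against 34.3 ± 10.6 CPM in TMRM-low libraries. Both were named after their values were seen, as the partners of Klra4, Klra8 and Klrk1, and did not pass. The phosphatase genes Ptpn6 (159.0 ± 2.16 CPM in TMRM-high libraries against 201.5 ± 40.7 CPM in TMRM-low libraries) and Inpp5d (154.1 ± 4.09 CPM in TMRM-high libraries against 160.0 ± 22.1 CPM in TMRM-low libraries) did not pass either, although Ptpn6 did without TMRM-low replicate 2 (log2 fold change -0.49, adjusted p = 0.0124).

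The granule and effector genes were split, with 3 of 16 tested genes higher and 3 lower in TMRM-high libraries (median -0.14). Srgn, the proteoglycan core of secretory granules in many blood cells, was at 1475.7 ± 25.6 CPM in TMRM-high libraries, against 664.9 ± 92.4 CPM in TMRM-low libraries (1.15, SE 0.0969, adjusted p = 0.000401). The chemokine gene Ccl4 was at 400.0 ± 10.3 CPM in TMRM-high libraries against 174.2 ± 12.1 CPM in TMRM-low libraries (1.20, SE 0.0723, adjusted p = 8.24e-05). Other chemokine genes of NK and T cells went the opposite way. Ccl5 was at 6.71, 5.90 and 3.61 CPM in TMRM-high libraries, against 60.5, 60.3 and 56.5 CPM in TMRM-low libraries (-3.44, SE 0.256, adjusted p = 0.000227). Xcl1 was at 0.680, 1.18 and 1.11 CPM in TMRM-high libraries, against 10.5, 7.11 and 6.59 CPM in TMRM-low libraries (-3.02, SE 0.486, adjusted p = 0.0079). Neither Ccl5 nor Xcl1 overlapped between the groups. The call of Xcl1 was lost without any 1 TMRM-high library (adjusted p = 0.0557 to 0.064).

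The other called granule genes were the lysosomal Lamp1 (0.32, SE 0.0819, adjusted p = 0.0467) and the lymphocyte cathepsin gene Ctsw (-1.80, SE 0.343, adjusted p = 0.0166), both named after their values were seen. Lamp1 lost its call in 8 of 13 settings and Ctsw in 4, among them without any 1 TMRM-high library (adjusted p = 0.165 to 0.225 and 0.0773 to 0.103). Ccl3 (186.9 ± 1.68 CPM in TMRM-high libraries, against 174.7 ± 20.6 CPM in TMRM-low libraries) and the granule docking gene Stxbp2 (161.0 ± 5.73 CPM in TMRM-high libraries against 164.5 ± 26.8 CPM in TMRM-low libraries) did not pass. Perforin, Prf1, was not tested because too few libraries reached the filter on low counts. It was at 0.408, 0.256 and 0 CPM in TMRM-high libraries, against 8.33, 0.125 and 6.75 CPM in TMRM-low libraries. Granzyme B, Gzmb, averaged 6.05 ± 0.536 CPM in TMRM-high libraries, against 5.98 ± 4.76 CPM in TMRM-low libraries. Perforin and granzyme B were named after their values were seen, and both overlapped between the groups.

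Of 14 tested transcription factors of the NK lineage, 0 rose and 2 fell (median -0.22). Irf8, which NK cells need to mature and which also directs monocyte and dendritic cell progenitors, was at 172.6 ± 9.39 CPM in TMRM-high libraries, against 322.7 ± 22.3 CPM in TMRM-low libraries (-0.90, SE 0.0793, adjusted p = 0.000453). Its adjusted p was 0.0841 with the TMRM-high libraries summed. Gata3 was at 15.0 ± 1.45 CPM in TMRM-high libraries against 27.4 ± 3.29 CPM in TMRM-low libraries (-0.87, SE 0.210, adjusted p = 0.038), and it lost its call in 6 settings, among them without any 1 TMRM-high library (adjusted p = 0.157 to 0.212). Runx3 (96.1 ± 2.85 CPM in TMRM-high libraries, against 85.6 ± 19.9 CPM in TMRM-low libraries) and Zeb2 (136.5 ± 7.96 CPM in TMRM-high libraries against 106.0 ± 34.2 CPM in TMRM-low libraries) did not pass, although Zeb2 did without TMRM-low replicate 3 (log2 fold change 0.66, adjusted p = 0.0101).

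RNA of the defining T-box factors of NK cells reached at most 5.23 CPM in any library, and the 2 genes differed. Tbx21 (T-bet) was at 0.680, 0.256 and 0.278 CPM in TMRM-high libraries and had no count in any TMRM-low library. Eomes was at 1.68, 0.975 and 1.11 CPM in TMRM-high libraries, against 2.08, 4.87 and 5.23 CPM in TMRM-low libraries, which did not overlap but did not pass (adjusted p = 0.110). Tbx21, Eomes and Itga2 were named after their values were seen. The 10 NK cell markers, of which Ncr1, Klrb1c, Klrd1, Klrk1, Klra8 and Gzma are among the genes described, summed to 12.6 to 15.8 CPM in TMRM-high libraries, against 67.2 to 85.6 CPM in TMRM-low libraries. Most of both sums came from these genes described above, so the gap was largely set by their choice. Of the list's other markers, perforin (Prf1) averaged 0.222 ± 0.206 CPM in TMRM-high libraries against 5.07 ± 4.35 CPM in TMRM-low libraries, and Itga2, which encodes the NK integrin CD49b, averaged 0.468 ± 0.219 CPM in TMRM-high libraries against 0.327 ± 0.173 CPM in TMRM-low libraries. Of the markers outside the 10 genes described, Eomes and Prf1 thus had a higher TMRM-low mean and Tbx21 and Itga2 a higher TMRM-high mean.

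Beside Il2rb, 17 other genes of cytokine receptors and their signalling were tested, and 0 rose and 2 fell (median -0.13). Il2rg, the common gamma chain that pairs with Il2rb, was at 76.3 ± 6.23 CPM in TMRM-high libraries, against 117.5 ± 7.13 CPM in TMRM-low libraries (-0.62, SE 0.105, adjusted p = 0.00951). It lost the call without TMRM-high replicate 1 (adjusted p = 0.0708) and without TMRM-high replicate 3 (adjusted p = 0.072). Il21r, the IL-21 receptor gene, was at 16.5 ± 0.208 CPM in TMRM-high libraries against 30.8 ± 6.77 CPM in TMRM-low libraries (-0.89, SE 0.220, adjusted p = 0.0398), and it lost the call in 6 settings, among them without any 1 TMRM-high library (adjusted p = 0.178 to 0.187). The kinase gene Jak1 (224.3 ± 7.13 CPM in TMRM-high libraries, against 244.6 ± 19.9 CPM in TMRM-low libraries) and Stat5a, which acts downstream of IL-15 (107.5 ± 2.91 CPM in TMRM-high libraries against 83.6 ± 21.4 CPM in TMRM-low libraries), did not pass.

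Among 14 tested trafficking and maturation genes, 1 rose and 3 fell (median 0.13). Cd27, a costimulatory receptor of immature NK cells, was at 81.9 ± 6.01 CPM in TMRM-high libraries, against 156.0 ± 11.7 CPM in TMRM-low libraries (-0.93, SE 0.101, adjusted p = 0.00121). Cd7, a lymphoid surface gene, was at 3.58, 4.41 and 5.55 CPM in TMRM-high libraries, against 37.3, 49.9 and 21.4 CPM in TMRM-low libraries (-3.01, SE 0.371, adjusted p = 0.00253). Every TMRM-high library was thus well below the lowest TMRM-low library for Cd7. With the TMRM-high libraries summed, the adjusted p was 0.205 for Cd27 and 0.177 for Cd7. Itgam, the CD11b integrin of myeloid cells and mature NK cells, was the gene that rose, at 46.9 ± 1.54 CPM in TMRM-high libraries, against 19.4 ± 4.76 CPM in TMRM-low libraries (1.28, SE 0.217, adjusted p = 0.0102), and lost the call without any 1 TMRM-high library (adjusted p = 0.0601 to 0.07). Spn and Itgal, which encode CD43 and CD11a, did not pass.

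Of 11 tested ligands of NK receptors, 0 rose and 4 fell (median -0.22), all of them of MHC class I. H2-T23 encodes Qa-1, which presents peptides to CD94 and NKG2A. It was at 249.0, 248.2 and 254.3 CPM in TMRM-high libraries, against 381.5, 424.8 and 339.0 CPM in TMRM-low libraries (-0.61, SE 0.0871, adjusted p = 0.00516). The libraries did not overlap, and the adjusted p was 0.398 with the TMRM-high libraries summed. B2m, the light chain of class I, fell by 0.38 on the log2 scale (SE 0.0672, adjusted p = 0.0123), H2-D1 by 0.26 (SE 0.0426, adjusted p = 0.00892) and H2-K1 by 0.22 (SE 0.0531, adjusted p = 0.0384). The adjusted p ran from 0.0633 to 0.0761 for H2-D1 and from 0.165 to 0.181 for H2-K1 without any 1 TMRM-high library, and for B2m it was 0.0731 without TMRM-high replicate 1 and 0.0720 without TMRM-high replicate 3. H2-K1 was also lost with total-count scaling (adjusted p = 0.0739). Cd48, the ligand of 2B4, and Clec2i, a ligand of the Klrb1 family, did not pass.

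**Figure D4:**
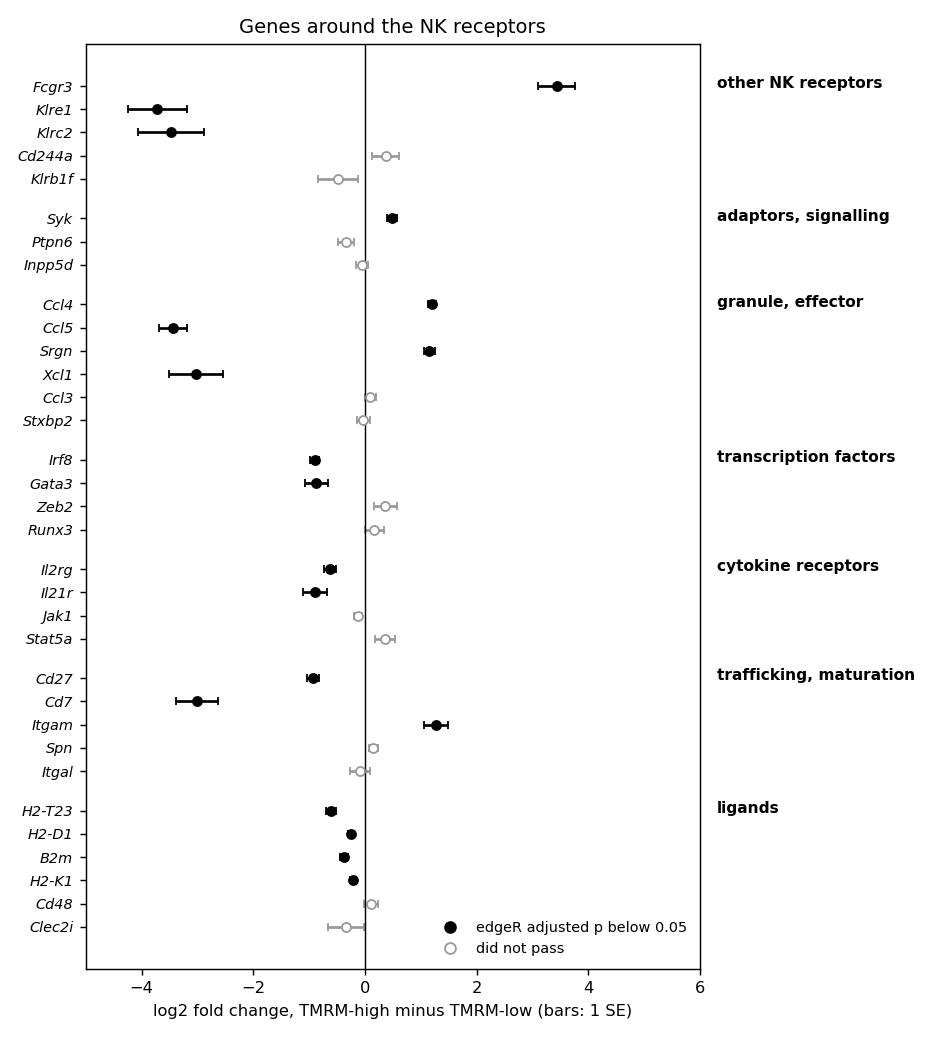
Fold changes of the genes around the NK receptors, by list. The horizontal axis is the log2 fold change, TMRM-high minus TMRM-low, bars are 1 SE, filled points passed edgeR's test at an adjusted p below 0.05 and open points did not. Klre1, Klrc2, Ccl5, Xcl1 and Cd7 lie at -3.72 to -3.01, Fcgr3 lies at 3.44, and most signalling genes lie near 0.

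Markers of other cells were read in the same way, beside 5.84% of all tested genes called higher and 5.12% called lower. Of 12 tested T cell markers 2 rose and 1 fell, and their sum was 115.2 to 124.7 CPM in TMRM-high libraries, against 161.6 to 192.2 CPM in TMRM-low libraries. Cd3d, a chain of the T cell receptor complex, was at 46.6 ± 3.46 CPM in TMRM-high libraries, against 126.4 ± 15.7 CPM in TMRM-low libraries (-1.44, SE 0.128, adjusted p = 0.000492), while Cd3e, named after its value was seen, was at 0.448 ± 0.274 CPM in TMRM-high libraries against 0.0817 ± 0.0959 CPM in TMRM-low libraries. Without Cd3d, the other T cell markers together were higher in TMRM-high libraries, but they did not all move one way. Cd3g, Cd2 and Trbc2 were named after their values were seen and did not pass with all libraries. Cd3g averaged 0.724 ± 0.71 CPM in TMRM-high libraries against 7.28 ± 4.47 CPM in TMRM-low libraries. Cd2 averaged 0.614 ± 0.538 CPM in TMRM-high libraries against 5.24 ± 3.37 CPM in TMRM-low libraries. Trbc2 was higher, at 9.95 ± 0.402 CPM in TMRM-high libraries against 5.15 ± 0.517 CPM in TMRM-low libraries. The genes that passed upward were the gamma constant genes Tcrg-C1 (18.0 ± 1.6 CPM in TMRM-high libraries, against 0.0386 ± 0.0668 CPM in TMRM-low libraries) and Tcrg-C2 (4.60 ± 0.655 CPM in TMRM-high libraries against 0.0193 ± 0.0334 CPM in TMRM-low libraries). Both passed the filter on low counts only through the TMRM-high libraries, so the direction of their change was largely fixed. With the TMRM-high libraries summed, none of these T cell markers passed by edgeR's test (adjusted p = 0.0797 for Cd3d, 0.0596 for Tcrg-C1 and 0.284 for Tcrg-C2), while 2 fell when any 1 TMRM-low library was left out and 3 fell with DESeq2. Of 6 tested markers of other innate lymphoid cells 0 rose and 1, Gata3, fell, with a sum of 306.7 to 316.2 CPM in TMRM-high libraries, against 248.0 to 359.9 CPM in TMRM-low libraries. Most of that sum was Kit, which encodes the c-Kit protein of the gate and was named after its value was seen. Kit averaged 263.0 ± 4.93 CPM in TMRM-high libraries against 248.2 ± 53.9 CPM in TMRM-low libraries. Of 9 B lineage markers 8 rose and 0 fell (5 and 0 with the TMRM-high libraries summed), with a sum of 473.1 to 483.3 CPM in TMRM-high libraries, against 42.2 to 45.4 CPM in TMRM-low libraries. Of 10 HSC and gate markers 0 rose and 4 fell (0 and 2 with the TMRM-high libraries summed), with a sum of 636.8 to 639.2 CPM in TMRM-high libraries, against 862.4 to 1025.9 CPM in TMRM-low libraries. The part of these cells in the receptor levels was not tested. Some B lineage markers, near 0 in TMRM-low libraries, passed the filter on low counts only through the TMRM-high libraries.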

How the data were processed

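RNA was measured in 6 libraries, 3 TMRM-high and 3 TMRM-low. The deposited values are the authors' estimated counts per gene, not scaled to depth and 25.2% to 29.1% of them not whole, and were rounded here. Tools named per the submitters' processing notes were Salmon, given as version 0.03.1, and Trim Galore 0.5.0, with the build GRCm38. The annotation is not given in the sources used here. Per the labels' protocols, cDNA was amplified by 13 cycles and read as pairs of 150 bases. The full-length protocol marks neither strand nor molecules, so a gene and its antisense partner share reads, and intervals cover counting error only.

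Symbols and GENCODE M21 positions were matched for 27728 of 28786 IDs. filterByExpr kept 13662 genes, including all 10 described here. edgeR 4.0.16 in R 4.3.3 fitted the group alone (TMM, robust quasi-likelihood, Benjamini-Hochberg over all tested genes, adjusted p below 0.05). Each SE is the size of the log2 fold change divided by the square root of the F statistic of this fit. It is no separate estimate, and for the 10 genes it is a description only. Genes, lists and tests were chosen with earlier results of these data known. Named genes are the 10 genes and, in each list, up to 4 called genes with the smallest p and up to 2 others with the highest CPM. A called trafficking gene among them is not reported here. Genes outside this rule are said to be chosen after their values were seen. The cell type lists were described by counts and sums. Alternatives were scaling by RLE or by total counts, no filter, a mean count of at least 50, DESeq2 1.42.0, the replicate number as a block, each library left out, and the TMRM-high libraries summed into 1. Their use on the counts of cell type markers was chosen after seeing the data. Biopython 1.88 aligned the promoter windows.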

Additional observations from a re-analysis of the deposited data

How the results depend on the processing

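The log2 fold changes of all 10 genes kept their sign under every alternative in which they were tested. With DESeq2, 1324 genes were called higher and 1337 lower, against 798 and 700. Leaving out 1 library gave 250 to 1398 higher and 181 to 1174 lower, the lowest counts coming without a TMRM-high library and the highest without a TMRM-low library. Summing the TMRM-high libraries gave 80 higher and 34 lower, with 15226 genes tested. In that setting the lone summed library is assumed to vary like the TMRM-low libraries. No pairing by replicate number was seen (correlations of deviations -0.0139, 0.0165 and 0.021), but the small spread of the TMRM-high libraries limits this check. With the replicate block 449 genes were lower. Of the genes around the receptors, 10 were higher and 24 lower with DESeq2, 3 to 12 higher and 6 to 22 lower with 1 library left out, and 3 higher and 1 lower with the TMRM-high libraries summed. With the replicate block 5 were higher and 13 lower. Changes of sign were found for genes that did not pass in either setting. With 1 library left out, the log2 fold change ran from -0.018 to 0.211 for Cd48, -0.115 to 0.067 for Inpp5d, -0.193 to 0.116 for Itgal, -0.004 to 0.311 for Runx3 and -0.101 to 0.116 for Stxbp2. Stxbp2 was at 0.002 with the TMRM-high libraries summed. The cause was not tested. Depth limits the Klra genes in TMRM-high libraries, where Klra4, Klra7 and Klra8 rest on 7, 16 and 3 counts.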

Other observations

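The stretch of chromosome 6 that holds the Klr genes also holds 40 other genes, of which 17 were tested. By edgeR's quasi-likelihood test 3 of them rose and 1 fell in TMRM-high libraries, and they are named after their values were seen. Over all tested genes the test called 5.84% higher and 5.12% lower. Clec12a, an inhibitory lectin receptor gene of myeloid cells, was at 385.7, 413.2 and 402.3 CPM in TMRM-high libraries, against 102.2, 95.1 and 116.4 CPM in TMRM-low libraries (log2 fold change 1.94, SE 0.0898, adjusted p = 2.62e-05). Cd69, an early activation receptor gene of leukocytes, was at 313.2 ± 16.1 CPM in TMRM-high libraries, against 74.0 ± 16.9 CPM in TMRM-low libraries (2.08, SE 0.162, adjusted p = 0.000285). Both kept the call in all 13 other settings. Olr1, an oxidised lipoprotein receptor gene, was at 8.90 ± 1.36 CPM in TMRM-high libraries, against 0.241 ± 0.224 CPM in TMRM-low libraries (5.19, SE 0.705, adjusted p = 0.00402), was at 6.23 without TMRM-low replicate 2, and lost the call with the TMRM-high libraries summed (adjusted p = 0.309). Clec1a was at 1.01 ± 0.334 CPM in TMRM-high libraries against 7.82 ± 4.38 CPM in TMRM-low libraries (-2.93, SE 0.638, adjusted p = 0.0271), and lost the call without any 1 TMRM-high library. Olr1 passed the filter on low counts only through the TMRM-high libraries. The calls among these neighbours went in both directions, and the lone fall is given without a reading.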
